A study of Mus musculus with 16 samples.

Results

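The genes described here encode the kinase mTOR, the other core subunits of its complexes and the regulators just upstream of them. They are Mtor, Mlst8, Rptor, Rictor, Akt1s1, Deptor, Rheb, Tsc1, Tsc2 and Ddit4. They were chosen by symbol, through the array's platform annotation, and each was found on a probe set that carries that symbol alone. All 10 members were among the 16760 genes tested, out of 22180 genes with such a probe set. The arrays measured regulatory T cells (Treg cells, the CD4+ T cells that restrain immune responses), sorted as CD4+Foxp3-YFP+ cells from the spleen and peripheral lymph nodes of C57BL/6 mice. The sorted cells of every group had been stimulated for 4 h on plates coated with antibodies to CD3 and CD28, so no group shows resting cells.

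There were 4 groups of 4 arrays. Untreated Atg7+/- cells came from Atg7+/flFoxp3-Cre mice and untreated Atg7-/- cells from Atg7fl/flFoxp3-Cre mice. The other groups came from mice of the same genotypes that had been given rapamycin, at 4 mg per kg of body weight, by daily intraperitoneal injection for 5 days. Atg7 encodes an enzyme required for autophagy. Every mouse carried Foxp3-Cre, which acts in cells that express Foxp3, and the Atg7+/- controls carried 1 floxed allele, so no group had Cre-free or fully intact Atg7 cells. The controls are labelled untreated, with no mention of vehicle injections, and the age of the mice is not given in the sources used here. Rapamycin was given to the whole mouse and was not said to be present during the 4 h of stimulation.

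As background, mTOR is a kinase that couples growth factors, nutrients and energy to protein synthesis and growth. It works in complex 1, defined by the subunit raptor (Rptor), and complex 2, defined by rictor (Rictor), with mLST8 (Mlst8) in both. Rheb, a small GTPase, switches complex 1 on at the lysosome, and the tuberous sclerosis proteins (Tsc1 and Tsc2) switch Rheb off. PRAS40 (Akt1s1) inhibits complex 1, DEPTOR (Deptor) binds both complexes and inhibits them, and REDD1 (Ddit4), a protein induced by stress, acts through the tuberous sclerosis complex to lower complex 1 activity. Rapamycin bound to FKBP12 inhibits complex 1 directly, and long exposure can also impair the assembly of complex 2. In T cells, complex 1 drives glycolysis and effector growth, and in Treg cells it is needed for suppressive function. The arrays report transcript levels only, and the activity of either complex was not measured.

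The promoters of Rictor and Ddit4, the members whose transcripts passed the test under rapamycin, are shown with those of Mlst8, a member near the threshold, and Mtor, the member whose 4 group means lay closest together. Each is the run of 250 bases before the annotated start of the gene, read 5′ to 3′ on the strand of the gene, from RefSeq sequence of build GRCm38.p6. Capitals mark ACGTG (the core of hypoxia response elements), CCAAT (the CCAAT box), CCGGAAG (an Ets motif) and GGGCGG (a GC box), each on either strand.
Rictor, chr15:6708131-6708380, plus strand: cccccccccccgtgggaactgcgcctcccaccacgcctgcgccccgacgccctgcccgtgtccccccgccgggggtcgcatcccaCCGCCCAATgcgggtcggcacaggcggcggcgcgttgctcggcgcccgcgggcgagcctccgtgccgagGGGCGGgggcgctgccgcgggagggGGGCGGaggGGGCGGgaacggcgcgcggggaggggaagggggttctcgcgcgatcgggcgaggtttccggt
Ddit4, chr10:59951771-59952020, minus strand: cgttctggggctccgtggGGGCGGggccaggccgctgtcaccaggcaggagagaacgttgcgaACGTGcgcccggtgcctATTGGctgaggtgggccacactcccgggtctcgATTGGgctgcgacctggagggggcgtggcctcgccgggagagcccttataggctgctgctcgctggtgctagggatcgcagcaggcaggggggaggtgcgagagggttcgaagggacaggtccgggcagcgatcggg
Mlst8, chr17:24479079-24479328, minus strand: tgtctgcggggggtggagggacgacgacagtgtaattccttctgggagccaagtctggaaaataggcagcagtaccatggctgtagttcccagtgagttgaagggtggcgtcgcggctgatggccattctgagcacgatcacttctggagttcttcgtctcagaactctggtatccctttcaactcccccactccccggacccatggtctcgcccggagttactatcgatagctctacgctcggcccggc
Mtor, chr4:148448332-148448581, plus strand: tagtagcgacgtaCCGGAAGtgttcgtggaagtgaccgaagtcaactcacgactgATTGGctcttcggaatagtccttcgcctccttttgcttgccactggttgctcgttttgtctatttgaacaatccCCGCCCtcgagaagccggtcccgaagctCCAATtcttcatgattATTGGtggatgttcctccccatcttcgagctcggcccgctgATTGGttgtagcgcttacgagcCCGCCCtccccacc

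The Rictor window was the richest in G and C of the 9 member promoters found in the table, at 81.2%, and held 4 GC boxes and 1 CCAAT, which shares 2 bases with a GC box. The Ddit4 window held 1 ACGTG, 187 to 183 bases before the start, with 2 CCAAT and 1 GC box. Mtor held 4 CCAAT, 2 GC boxes and 1 CCGGAAG, and Mlst8 held none of the 4 motifs. Over all 32851 windows of this length in the table, 16.6% held ACGTG, 33.8% CCAAT, 6.91% CCGGAAG and 32.7% GGGCGG, so these letters are common. The forkhead motif GTAAACA, the cyclic AMP response element TGACGTCA, the amino acid response motif TGATGNAAT and the box TATAAA were also searched on both strands, and no member window held any of them. They were found in 3.17%, 1.55%, 0.816% and 12.4% of all windows. The E-box CACGTG was searched too, and of the member windows only that of Rheb held it, against 6.02% of all windows.

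Pearson correlations between arrays over the genes tested lay between 0.9733 and 0.9939, and no arrays were identical. Rapamycin Atg7-/- replicate 3 stood apart on the second principal component (14.6% of the variance), with a score of -29.83 against -12.88 to -7.567 for the rest of its group, and the calls that its removal changed are given without it. The defining Treg markers were present: Foxp3 averaged between 10.86 and 11.34 in the 4 groups. The Atg7 probe set did not pass the test between genotypes (-0.28 without and -0.30 with rapamycin, limma adjusted p = 0.299 and 0.232). The labels do not say which stretch of Atg7 is deleted, so this probe set is no check of the genotypes.

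**Figure D1:**
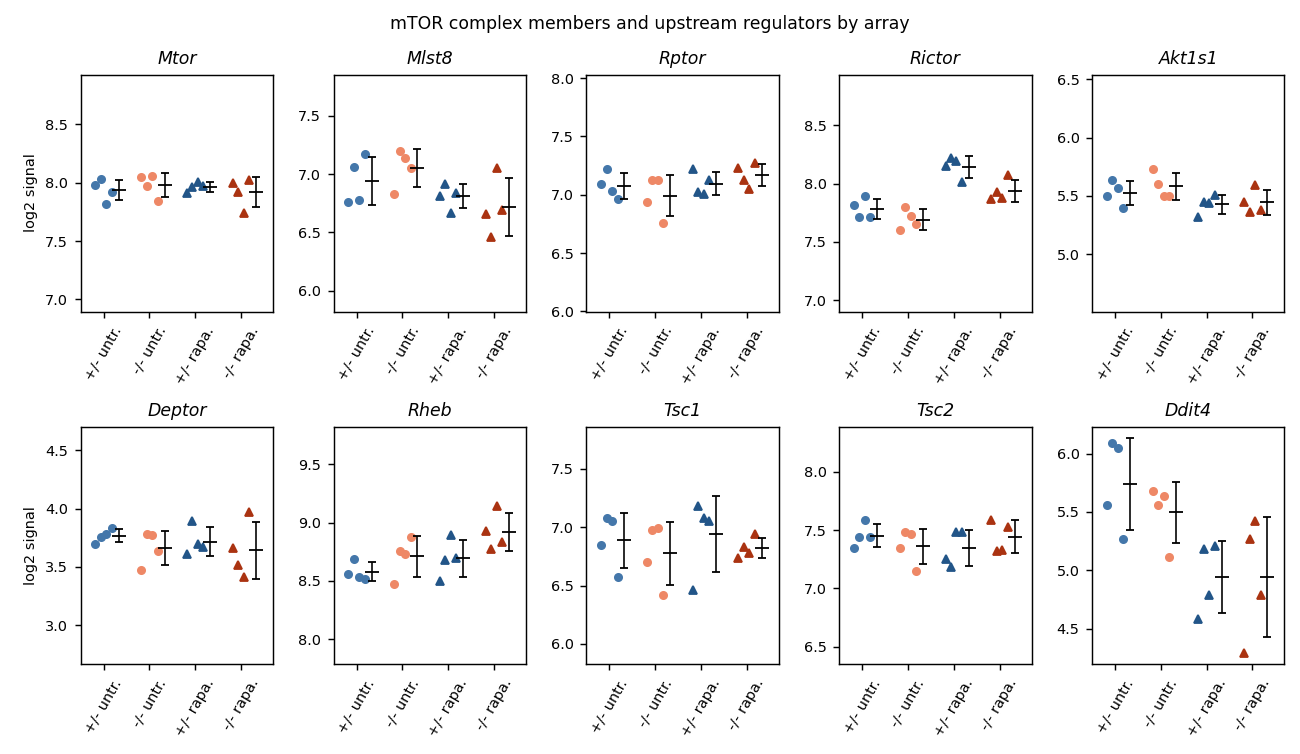
Log2 signal (vertical axis, the same height in every panel) of the 10 members on each of the 16 arrays, by group (+/- and -/- are Atg7 genotypes, untr. untreated, rapa. rapamycin; bars are the mean and SD over 4 arrays). The Rictor arrays of the rapamycin groups lie above the untreated arrays of the same genotype. Over all 16 arrays together, Ddit4 spreads more widely than any other member.

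Loss of Atg7 was asked about first, as the difference between Atg7-/- and Atg7+/- cells without and with rapamycin. No member passed the test in either comparison, where limma called 3.14% of all genes tested without rapamycin (1.75% higher and 1.39% lower) and 3.24% with it (1.91% higher and 1.33% lower), at an adjusted p under 0.05. The arrays of the genotypes overlapped for every member, while they did not overlap for 14.1% and 9.77% of all genes. Without rapamycin the member differences ran up to 0.24 in size, on the log2 scale, and the largest was that of Ddit4 (-0.24, SE 0.232, adjusted p = 0.644). At an unadjusted p under 0.05, 0 members differed without rapamycin and 1 with it, Rictor. Rictor under rapamycin averaged 7.94 in Atg7-/- and 8.14 in Atg7+/- cells, a difference of -0.21 with a 95% confidence interval of -0.38 to -0.03 (SE 0.0824, limma adjusted p = 0.183). The median difference of the members was -0.0867 without and -0.0207 with rapamycin, against 0.0222 and 0.0166 over all genes tested. The 95% intervals of the Atg7 difference without and with rapamycin were, on the log2 scale, -0.73 to 0.24 and -0.49 to 0.49 for Ddit4 and -0.15 to 0.38 and -0.36 to 0.17 for Mlst8.

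Rapamycin was the comparison in which members changed. In Atg7+/- cells Rictor rose 1.29-fold and Ddit4 fell 1.74-fold, and the other 8 members did not pass the test. Rictor also rose in Atg7-/- cells, 1.19-fold, and no other member passed there. The share of members called was 2 of 10 in Atg7+/- cells, where limma called 14.1% of all genes tested, 6.03% as higher and 8.11% as lower. It was 1 of 10 in Atg7-/- cells, where limma called 20% of all genes, 8.83% as higher and 11.1% as lower. Both shares are near those backgrounds, so the counts say nothing particular about the members as a set. The members' median difference was -0.0155 in Atg7+/- and 0.0112 in Atg7-/- cells, against -0.0345 and -0.0399 over all genes. The arrays of the compared groups did not overlap for 2 members in Atg7+/- cells and 1 in Atg7-/- cells, where 22.7% and 20.4% of all genes showed no overlap.

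**Figure D2:**
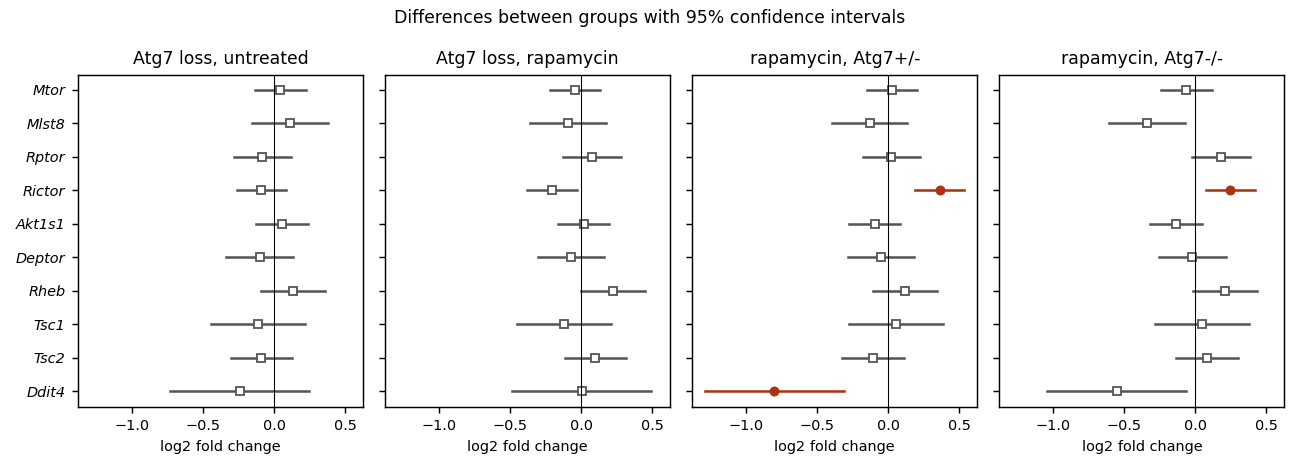
Log2 fold change (horizontal axis) of each member in the 4 comparisons of groups, with 95% confidence intervals from limma. Filled circles mark an adjusted p under 0.05 and open squares the rest. Rictor is called with rapamycin in both genotypes, at 0.36 and 0.25, and Ddit4 in Atg7+/- cells, at -0.80.

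Mtor, the catalytic subunit of both complexes, was the steadiest member. Its log2 signals were 7.98, 8.03, 7.82 and 7.92 in untreated Atg7+/- replicates 1 to 4, and 8.05, 7.97, 8.06 and 7.84 in untreated Atg7-/- cells. With rapamycin they were 7.91, 7.96, 8.01 and 7.97 in Atg7+/- cells and 8, 7.92, 7.74 and 8.02 in Atg7-/- cells. The groups overlapped throughout, and the lowest array was the replicate that stood apart. The means ran from 7.92 to 7.98, a span of 0.063. The 95% intervals of the 4 differences between groups ran from 0.847-fold to 1.17-fold, so a larger change in Mtor transcript lies outside all of them.

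Mlst8, the small beta-propeller subunit shared by both complexes, had its lowest mean in rapamycin Atg7-/- cells. Untreated Atg7-/- replicates 1 to 4 had log2 signals of 6.83, 7.2, 7.14 and 7.05, and the rapamycin Atg7-/- arrays 6.66, 6.46, 7.05 and 6.69. The rapamycin arrays lay below all the untreated ones except replicate 3, at 7.05. The difference was -0.34 (SE 0.126, 95% interval -0.60 to -0.07, limma adjusted p = 0.0657) and did not pass the test. It passed without rapamycin Atg7-/- replicate 3 (-0.45, adjusted p = 0.0124), without untreated Atg7-/- replicate 1 (-0.41, adjusted p = 0.0437) and with arrays weighted by their estimated precision (-0.41, adjusted p = 0.0235). In Atg7+/- cells the means were 6.94 ± 0.204 untreated and 6.81 ± 0.102 with rapamycin (SD, n = 4 each), a difference of -0.13 (adjusted p = 0.528).

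Rptor, the scaffold that brings substrates to complex 1, kept means between 6.99 and 7.17 in the 4 groups. Its largest difference was 0.18 with rapamycin in Atg7-/- cells, from 6.99 ± 0.176 to 7.17 ± 0.0971 (SD, n = 4 each, SE of the difference 0.0963, limma adjusted p = 0.201). In Atg7+/- cells the difference was 0.02 (adjusted p = 0.912). Over the 4 comparisons its 95% intervals ran from 0.821-fold to 1.30-fold. Akt1s1, which encodes the complex 1 inhibitor PRAS40, had means between 5.43 and 5.58 and intervals from 0.802-fold to 1.18-fold. Its rapamycin differences were -0.10 in Atg7+/- and -0.14 in Atg7-/- cells (adjusted p = 0.496 and 0.279). Another Akt1s1 probe set also carries the symbol of a microRNA gene, Mir707, and was not used. It was brighter, averaging 6.318 over the 16 arrays against 5.495 for the probe set used. It also varied more, from 5.42 to 6.938 against 5.315 to 5.734, and was not tested. The Akt1s1 intervals therefore hold for the probe set used alone.

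Rictor, the scaffold of complex 2, was the member called in both genotypes. Untreated Atg7+/- replicates 1 to 4 had log2 signals of 7.82, 7.71, 7.89 and 7.71, and the rapamycin Atg7+/- arrays 8.15, 8.22, 8.19 and 8.01. All 4 rapamycin arrays lay above all 4 untreated ones. The difference was 0.36 (SE 0.0824, 95% interval 0.19 to 0.54, limma adjusted p = 0.00781). Its call was kept in each of the 16 fits that left out 1 array and in each of the 9 other settings tried.

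In Atg7-/- cells Rictor read 7.6, 7.8, 7.72 and 7.65 untreated and 7.87, 7.93, 7.88 and 8.07 with rapamycin. These groups did not overlap either, but the gap between 7.8 and 7.87 was narrow. The difference was 0.25 (SE 0.0824, 95% interval 0.07 to 0.42, limma adjusted p = 0.0432). The call was lost in 8 of the 16 fits without 1 array, at adjusted p up to 0.126. Those were the fits without untreated Atg7+/- replicate 1 or 2, untreated Atg7-/- replicate 1, 3 or 4, rapamycin Atg7+/- replicate 2, or rapamycin Atg7-/- replicate 2 or 4. Without rapamycin Atg7-/- replicate 3, the array that stood apart, the call held. It was also lost with arrays centred on their medians (adjusted p = 0.0611), with no filter on dim genes (0.0552), with only the groups compared (0.106) and with the replicate number as a block (0.0583). The effects in the genotypes differed by -0.12 (95% interval -0.36 to 0.13, limma adjusted p = 0.897).

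Deptor, which encodes the inhibitory subunit DEPTOR, was measured close to the level below which genes were left out, a log2 signal of 3.549. Its probe set averaged between 3.64 and 3.77 in the 4 groups, with single arrays from 3.413 to 3.971, and a second Deptor probe set was dimmer still, averaging 3.263 over the 16 arrays. No Deptor difference passed, and at this signal a change in a low transcript would be hard to see. Its 95% intervals ran from 0.792-fold to 1.16-fold.

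Rheb, the GTPase that activates complex 1, had its highest mean in rapamycin Atg7-/- cells, at 8.92 ± 0.163 (SD, n = 4). The arrays of that group read 8.93, 8.77, 9.14 and 8.83, against 8.56, 8.69, 8.53 and 8.52 in untreated Atg7+/- cells. Those 2 groups, with the highest and the lowest mean, differ in both genotype and rapamycin and were not compared by a test. Untreated Atg7-/- cells averaged 8.71 ± 0.173 and rapamycin Atg7+/- cells 8.69 ± 0.159, and each overlapped every other group. The highest array was again replicate 3 of the rapamycin Atg7-/- group. Rapamycin in Atg7-/- cells gave a difference of 0.21 (SE 0.107, limma adjusted p = 0.183), and Atg7 loss under rapamycin 0.22 (SE 0.107, adjusted p = 0.277). Neither passed the test, and over the 4 comparisons the 95% intervals ran from 0.926-fold to 1.37-fold.

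Tsc1 and Tsc2 encode the partners of the complex that inactivates Rheb, Tsc2 being the GTPase-activating subunit and Tsc1 its stabilizer. Tsc1 means ran from 6.78 to 6.94 and Tsc2 means from 7.35 to 7.45. Tsc1 spread within groups more than Tsc2, except in rapamycin Atg7-/- cells (SD 0.0862 against 0.138). Its rapamycin Atg7+/- arrays read 6.46, 7.18, 7.08 and 7.05, with an SD of 0.328. No difference of either gene passed the test, and the largest in size was -0.12 for Tsc1 and -0.11 for Tsc2. The 95% intervals ran from 0.731-fold to 1.31-fold for Tsc1 and from 0.799-fold to 1.24-fold for Tsc2.

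Ddit4, which encodes the stress-induced inhibitor REDD1, had the widest span of group means of the 10 members, 0.801. Untreated Atg7+/- replicates 1 to 4 had log2 signals of 5.56, 6.09, 6.05 and 5.27, and the rapamycin Atg7+/- arrays 4.58, 5.18, 4.79 and 5.21. The rapamycin arrays all lay below the untreated ones, by a margin of 5.21 against 5.27 at the closest. Ddit4 fell by 0.80 on the log2 scale (SE 0.232, 95% interval -1.29 to -0.31, limma adjusted p = 0.028). The call was lost without untreated Atg7+/- replicate 2 (adjusted p = 0.0875) or 3 (0.0852) and without rapamycin Atg7+/- replicate 1 (0.0908) or 3 (0.0639), and the value stayed between -0.96 and -0.68 over the 16 fits.

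In Atg7-/- cells the untreated Ddit4 arrays read 5.68, 5.56, 5.64 and 5.11 and the rapamycin arrays 4.29, 5.27, 5.42 and 4.79. Replicates 2 and 3 with rapamycin overlapped the untreated group, whose replicate 4 was its lowest. The difference of -0.56 did not pass (SE 0.232, 95% interval -1.04 to -0.07, limma adjusted p = 0.0989). Without rapamycin Atg7-/- replicate 3 it was -0.71 and passed (adjusted p = 0.0406), and without replicate 1 of that group it was -0.34 (adjusted p = 0.286). The effects in the genotypes differed by 0.25 (95% interval -0.44 to 0.94, adjusted p = 0.928). With rapamycin the genotypes averaged 4.94 each.

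No member had a rapamycin effect that differed between genotypes at an adjusted p under 0.05. Limma called 0% of all genes in this comparison, where 1052 genes and 0 members had an unadjusted p under 0.05. The member interval reaching farthest from 0 was that of Ddit4.

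The patterns of the 3 members with the widest spans were compared with all other genes tested, by the root mean square difference over the 16 arrays after centring each gene on its own mean. For Ddit4 the nearest were Tspan31, a tetraspanin gene (0.218), Pdlim1, a cytoskeletal adaptor gene (0.222), and Itpk1, an inositol phosphate kinase gene (0.238), against a median of 0.501 over all genes. Tspan31 averaged 8.23 and 8.19 in untreated Atg7+/- and Atg7-/- cells and 7.4 in both rapamycin groups. For Rictor the nearest were Nipbl, the cohesin loader gene (0.0692), Stag1, a cohesin subunit gene (0.079), and Tnfrsf18, which encodes the Treg receptor GITR (0.0831), against a median of 0.282. Nipbl averaged 9.39, 9.21, 9.72 and 9.49 in untreated Atg7+/-, untreated Atg7-/-, rapamycin Atg7+/- and rapamycin Atg7-/- cells. The genes nearest to Mlst8 were Cyb5r2, Tmprss5 and Psca (0.0937 to 0.122), all with group means under 4. These are descriptions of likeness, with no test.

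The rest of the pathway was described from 8 lists of 113 genes by role, of which 104 matched a probe set with that symbol alone and 102 were tested. With rapamycin 18 of the 102 were called in Atg7+/- cells (7 higher and 11 lower, 17.6%, against 14.1% of all genes) and 33 in Atg7-/- cells (17 higher and 16 lower, 32.4%, against 20%). Between genotypes 4 were called without rapamycin and 3 with it (3.92% and 2.94%, against 3.14% and 3.24% of all genes). The median rapamycin difference of the 102 genes was -0.0531 in Atg7+/- and 0.017 in Atg7-/- cells. By list, the share called with rapamycin ran from 0% to 33.3% in Atg7+/- and from 0% to 50% in Atg7-/- cells. These shares stand against the same 14.1% and 20% of all genes. The lists held 5 to 18 tested genes, so single calls weigh much, and no list was tested as a set. The rapamycin comparisons share no array, but the fit took the variance of each gene from all 16 arrays. The calls in the genotypes are therefore not independent of each other. Members and listed genes together gave 20 calls in Atg7+/- and 34 in Atg7-/- cells, with 16 in both, all in the same direction, which is 80% of the first and 47.1% of the second. Over all genes the shares were 64.1% and 45.4%.

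**Figure D3:**
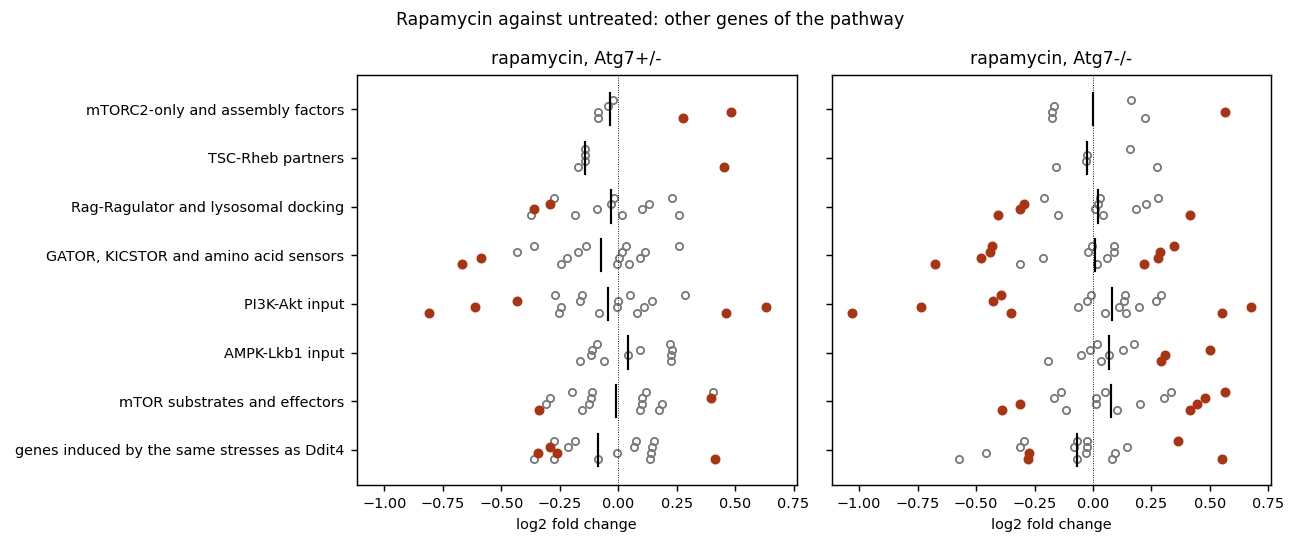
Log2 fold change with rapamycin (horizontal axis) of each tested gene of the 8 lists in Atg7+/- (left) and Atg7-/- cells (right). Filled points mark an adjusted p under 0.05, open points the rest, and bars the median of each list. Called genes lie on both sides of 0 in 3 lists in Atg7+/- and 5 lists in Atg7-/- cells, and the PI3K-Akt list holds the widest range, from -0.81 to 0.63 and from -1.03 to 0.68.

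Among 6 further subunits of complex 2 and assembly factors, Mapkap1 rose in both genotypes. It encodes SIN1, the subunit that positions the substrates of complex 2. Untreated Atg7+/- replicates 1 to 4 read 7.54, 7.55, 7.64 and 7.43 and the rapamycin Atg7+/- arrays 7.96, 8.01, 8.02 and 8.09. Mapkap1 in Atg7-/- cells read 7.52, 7.59, 7.66 and 7.59 untreated and 8.02, 8.17, 8.26 and 8.17 with rapamycin. The rapamycin arrays lay above the untreated ones in both genotypes, with differences of 0.48 (SE 0.078, limma adjusted p = 0.000778) and 0.57 (SE 0.078, adjusted p = 0.000114), and both calls were kept in all 16 fits without 1 array. Tti2, a chaperone of mTOR-like kinases, rose by 0.28 in Atg7+/- cells (adjusted p = 0.0302), a call lost in 5 of the 16 fits (adjusted p up to 0.0861). The list gave 2 calls in Atg7+/- and 1 in Atg7-/- cells, all higher, with medians of -0.0336 and -0.000646.

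In the PI3K-Akt list, whose products feed growth factor and antigen receptor signals to Akt and mTOR, rapamycin gave 2 calls higher and 3 lower of 18 in Atg7+/- cells. For Atg7-/- cells the counts were 2 higher and 5 lower, with medians of -0.0449 and 0.0804. Pik3cg, the catalytic subunit of PI3K-gamma, fell most. It read 6.93, 6.69, 7.26 and 6.78 in untreated and 6.04, 6.18, 6.21 and 6.01 in rapamycin Atg7+/- cells, a fall of 0.81 (SE 0.157, limma adjusted p = 0.00297). The Atg7-/- arrays went from 7.49, 7.5, 7.36 and 7.05 to 5.83, 6.47, 6.66 and 6.32, a fall of 1.03 (SE 0.157, adjusted p = 0.000258). No rapamycin array reached an untreated array of its genotype.

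Inpp5d, which encodes the lipid phosphatase SHIP-1, fell by 0.61 in Atg7+/- and 0.74 in Atg7-/- cells (limma adjusted p = 0.00027 and 2.89e-05). Its means went from 8.40 ± 0.0745 to 7.79 ± 0.118 and from 8.39 ± 0.123 to 7.65 ± 0.087 (SD, n = 4 each). Pik3ca, the catalytic subunit of PI3K-alpha, rose by 0.46 and 0.55 (adjusted p = 0.00113 and 0.000144). Inpp4b, another lipid phosphatase gene, rose by 0.63 and 0.68 (adjusted p = 0.00372 and 0.00139). Akt1, the kinase that phosphorylates Tsc2 and PRAS40, fell by 0.43 and 0.35 (adjusted p = 0.00407 and 0.00947). For Pik3cg, Inpp5d, Pik3ca, Inpp4b and Akt1 the groups did not overlap in either genotype, and all of these calls were kept in the 16 fits without 1 array. The further calls in Atg7-/- cells were Pik3r5 (-0.40) and Pik3r6 (-0.43), the regulatory subunits of PI3K-gamma, which were lost in 6 and 4 of the 16 fits (adjusted p up to 0.128 and 0.103). Akt1, Pik3r5 and Pik3r6 were named after their values were seen.

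**Figure D4:**
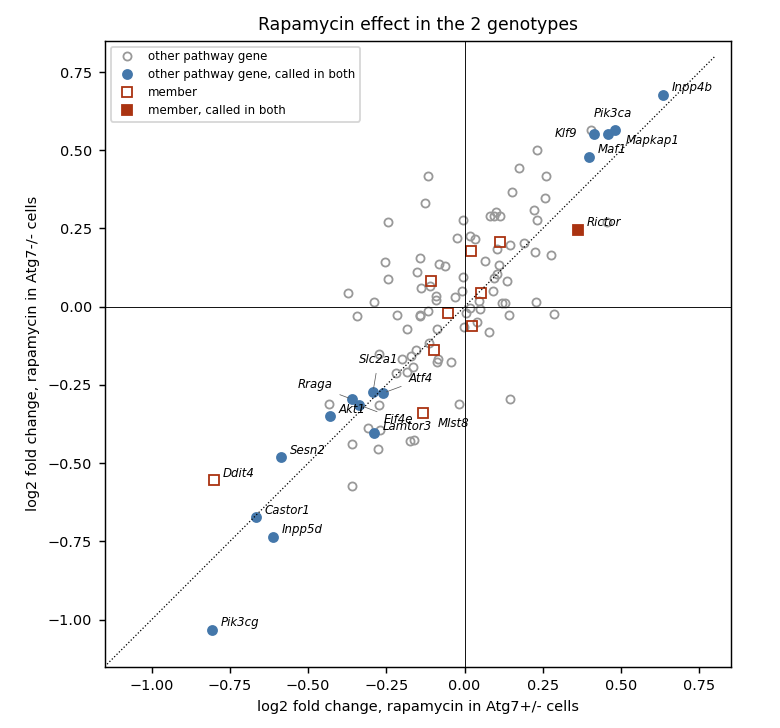
Log2 fold change with rapamycin in Atg7+/- cells (horizontal axis) and in Atg7-/- cells (vertical axis) for the 10 members (squares) and the 102 other pathway genes (circles). Filled symbols are called in both genotypes, and the dotted line marks equal effects. The 16 genes called in both lie on the same side of 0 on each axis, from Pik3cg at -0.81 and -1.03 to Inpp4b at 0.63 and 0.68.

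The lists of nutrient sensing gave calls in both directions in Atg7-/- cells and only lower calls in Atg7+/- cells. In the list of the GATOR complexes, which relay amino acid levels to the lysosome, and the sensors above them, 2 of 16 fell in Atg7+/- cells. The counts in Atg7-/- cells were 4 higher and 4 lower. These are 12.5% and 50% of the list, against 14.1% and 20% of all genes. Castor1, the arginine sensor, fell by 0.67 in each genotype (limma adjusted p = 0.0182 and 0.0126). Its call in Atg7+/- cells was lost without untreated Atg7+/- replicate 2 or rapamycin Atg7+/- replicate 1 (adjusted p up to 0.0653). Sesn2, the stress-induced leucine sensor, fell by 0.59 and 0.48 (adjusted p = 0.0108 and 0.023), the latter lost in 4 of the 16 fits (up to 0.0706). Nprl2, a GATOR1 subunit, fell by 0.44 in Atg7-/- cells (adjusted p = 0.0371), a call lost in 5 fits (up to 0.117), and Wdr59, a GATOR2 subunit, by 0.43 (adjusted p = 0.00108). The genes that rose there were Itfg2, a KICSTOR subunit (0.35), Bmt2, a methionine sensor (0.29), Sesn1, a sestrin (0.28), and Depdc5, a GATOR1 subunit (0.22). The first 3 of these were named after their values were seen, and their calls were lost in 3, 6 and 5 fits (adjusted p up to 0.0873, 0.101 and 0.132).

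Of 13 genes of the Rag GTPases, the Ragulator scaffold and their regulators, Rraga, which encodes the GTPase RagA, fell by 0.36 in Atg7+/- and 0.30 in Atg7-/- cells (limma adjusted p = 0.0124 and 0.0259). Lamtor3, a Ragulator subunit, fell by 0.29 and 0.40 (adjusted p = 0.047 and 0.00588). Lamtor5, another Ragulator subunit, rose by 0.42 in Atg7-/- cells (adjusted p = 0.0203) and Fnip2, a partner of folliculin, fell by 0.31 (adjusted p = 0.0296). The call of Lamtor3 in Atg7+/- cells was lost in 12 of the 16 fits without 1 array (adjusted p up to 0.13). The Atg7-/- calls of Rraga, Lamtor5 and Fnip2 were lost in 6, 4 and 5 fits (up to 0.0793, 0.0636 and 0.0914). The list's counts were 2 lower in Atg7+/- cells and 1 higher and 3 lower in Atg7-/- cells, with medians of -0.03 and 0.0206.

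Of 5 tested partners of Rheb and the tuberous sclerosis complex and FK506-binding proteins, Rhebl1, a paralogue of Rheb, rose by 0.45 in Atg7+/- cells (limma adjusted p = 0.00664) and was called alone. Its difference in Atg7-/- cells was 0.27 (adjusted p = 0.0643), and the difference between the genotypes' effects was -0.18 (95% interval -0.48 to 0.12). Fkbp1a, which encodes the rapamycin-binding protein FKBP12, had differences of -0.17 and -0.16 that did not pass (adjusted p = 0.149 and 0.16). Among 11 genes of AMPK, the energy sensor that restrains complex 1, and its activating kinase, none passed in Atg7+/- cells. In Atg7-/- cells 3 rose (27.3%, against 8.83% of all genes called higher). They were Cab39l, an Lkb1 scaffold (0.50, adjusted p = 0.00535), Prkag1, an AMPK subunit (0.31, adjusted p = 0.0447), and Stradb, an Lkb1 partner (0.29, adjusted p = 0.0444). The last pair lost their calls in 12 and 10 of the 16 fits without 1 array (adjusted p up to 0.127 and 0.109).

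Of 16 mTOR substrates and effectors tested, Eif4e, the cap-binding translation factor whose inhibitors complex 1 switches off, fell by 0.34 in Atg7+/- and 0.31 in Atg7-/- cells (limma adjusted p = 0.00691 and 0.00721). Maf1, a repressor of RNA polymerase III that mTOR holds inactive, rose by 0.40 and 0.48 (adjusted p = 0.0326 and 0.0087), with the Atg7+/- call lost in 6 of the 16 fits without 1 array (adjusted p up to 0.0896). Ulk1, the kinase that starts autophagy, rose by 0.44 in Atg7-/- cells (adjusted p = 0.0103). Also in those cells Ndrg1, a target of the complex 2 substrate SGK1, rose by 0.56 (adjusted p = 0.0446), Eif4a1, a translation helicase, rose by 0.42 (adjusted p = 0.0265), and Rps6kb2, an S6 kinase, fell by 0.39 (adjusted p = 0.0255). These calls of Ndrg1, Eif4a1 and Rps6kb2, the last named after its values were seen, were lost in 11, 5 and 4 fits (up to 0.13, 0.0866 and 0.0804). With a gene's probe sets averaged, the Eif4a1 value was 0.13 (adjusted p = 0.311), and its call was also lost with array weights and with only the groups compared. The Ndrg1 call was lost with probe sets averaged too. The counts were 1 higher and 1 lower in Atg7+/- and 4 higher and 2 lower in Atg7-/- cells.

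Calls among the genes known to be induced by the same stresses as Ddit4 (hypoxia, glucocorticoids, amino acid shortage and DNA damage) went both ways. Of 17 tested, rapamycin gave 1 higher and 3 lower in Atg7+/- cells and 2 higher and 2 lower in Atg7-/- cells, with medians of -0.0882 and -0.0699. That is 23.5% in each genotype, against 14.1% and 20% of all genes tested. Over all genes the calls went both ways as well. Klf9, a glucocorticoid-responsive transcription factor, rose by 0.41 and 0.55 (limma adjusted p = 0.0358 and 0.00533), opposite to Ddit4. Slc2a1, the glucose transporter GLUT1, fell by 0.29 and 0.27 (adjusted p = 0.0217 and 0.0239), and Atf4, the transcription factor of the amino acid response, by 0.26 and 0.28 (adjusted p = 0.042 and 0.025). Vegfa, a hypoxia-induced growth factor gene, fell by 0.34 in Atg7+/- cells (adjusted p = 0.0403), and Tsc22d3, a glucocorticoid-induced gene, rose by 0.37 in Atg7-/- cells (adjusted p = 0.0263). In Atg7+/- cells the calls of Klf9, Slc2a1, Atf4 and Vegfa were lost in 6, 5, 9 and 6 of the 16 fits without 1 array (adjusted p up to 0.105, 0.07, 0.13 and 0.131). The Atg7-/- calls of Slc2a1, Atf4 and Tsc22d3 were each lost in 4 (up to 0.0693, 0.0832 and 0.0855). With a gene's probe sets averaged, the Slc2a1 calls were lost in both genotypes (limma adjusted p = 0.0686 in Atg7+/- cells).

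Leaving out rapamycin Atg7-/- replicate 3, the array that stood apart, ended 11 of the pathway calls with rapamycin in Atg7-/- cells. Ndrg1 moved most, from 0.56 to 0.36 (limma adjusted p = 0.13). Among the nutrient sensing genes, Fnip2 was then at -0.27 (adjusted p = 0.0685), Lamtor5 at 0.32 (0.0602), Depdc5 at 0.21 (0.0761), Bmt2 at 0.22 (0.101) and Sesn1 at 0.27 (0.0606). Prkag1 and Stradb of the AMPK list were at 0.23 and 0.24 (adjusted p = 0.123 and 0.109). Eif4a1 was at 0.35 (0.0696), Tsc22d3 at 0.29 (0.073) and Pik3r6 at -0.36 (0.0773). All 11 kept their direction. The same fit gained calls between the untreated genotypes. Tsc22d3 (-0.40) and Bmt2 (-0.34) then passed, at adjusted p = 0.0362 and 0.0315, against 0.0543 and 0.0533 with all arrays.

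Between genotypes the clearest pathway difference was that of Pik3r1, which encodes the main regulatory subunit of PI3K, p85-alpha. It read 9.16, 9.07, 9.02 and 9.06 in untreated Atg7+/- cells and 8.38, 8.52, 8.3 and 8.33 in untreated Atg7-/- cells. With rapamycin the arrays read 9.08, 9.3, 9.19 and 9.17 against 8.28, 8.67, 8.7 and 8.41. All Atg7-/- arrays lay below all Atg7+/- arrays. Pik3r1 fell by 0.69 without rapamycin (SE 0.0968, limma adjusted p = 0.00078) and by 0.67 with it (SE 0.0968, adjusted p = 0.00249), and both calls were kept in all 16 fits without 1 array.

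Wdr59 and Fnip2 were higher in untreated Atg7-/- than Atg7+/- cells. Foxp3 was lower in the same comparison, at 10.86 against 11.26 (-0.40, limma adjusted p = 0.0355). Under rapamycin Foxp3 averaged 10.99 in Atg7-/- and 11.34 in Atg7+/- cells and did not pass (-0.35, adjusted p = 0.0662). The part of Foxp3 in the differences between genotypes was not tested. Wdr59 read 7.97, 8.26, 8.21 and 8.2 in Atg7+/- and 8.61, 8.63, 8.72 and 8.53 in Atg7-/- cells, a rise of 0.46 (limma adjusted p = 0.0032). Fnip2 read 5.34, 5.4, 5.35 and 5.36 against 6.02, 5.94, 5.67 and 5.93, a rise of 0.53 (adjusted p = 0.00543). The groups did not overlap for either gene. Under rapamycin the differences were 0.21 and 0.23 (adjusted p = 0.156 and 0.202). The rapamycin effects of the genotypes differed by -0.26 for Wdr59 and -0.29 for Fnip2 (adjusted p = 0.792 for both), so a difference in effect was not shown.

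Depdc5, a GATOR1 subunit, fell by 0.28 with Atg7 loss in untreated cells (limma adjusted p = 0.0412), and rose by 0.22 with rapamycin in Atg7-/- cells (adjusted p = 0.0435). These calls were lost in 11 and 12 of the 16 fits without 1 array (adjusted p up to 0.118 and 0.119). Under rapamycin 2 further genes were lower in Atg7-/- cells. They were Phlpp1, an Akt phosphatase (-0.57, adjusted p = 0.0269), and Prkab2, an AMPK subunit (-0.48, adjusted p = 0.00934). The call of Phlpp1 was lost without rapamycin Atg7+/- replicate 1, 2 or 4 (adjusted p up to 0.0981). With only the arrays of the compared groups in the fit, no pathway gene was called between genotypes under rapamycin.

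**Figure D5:**
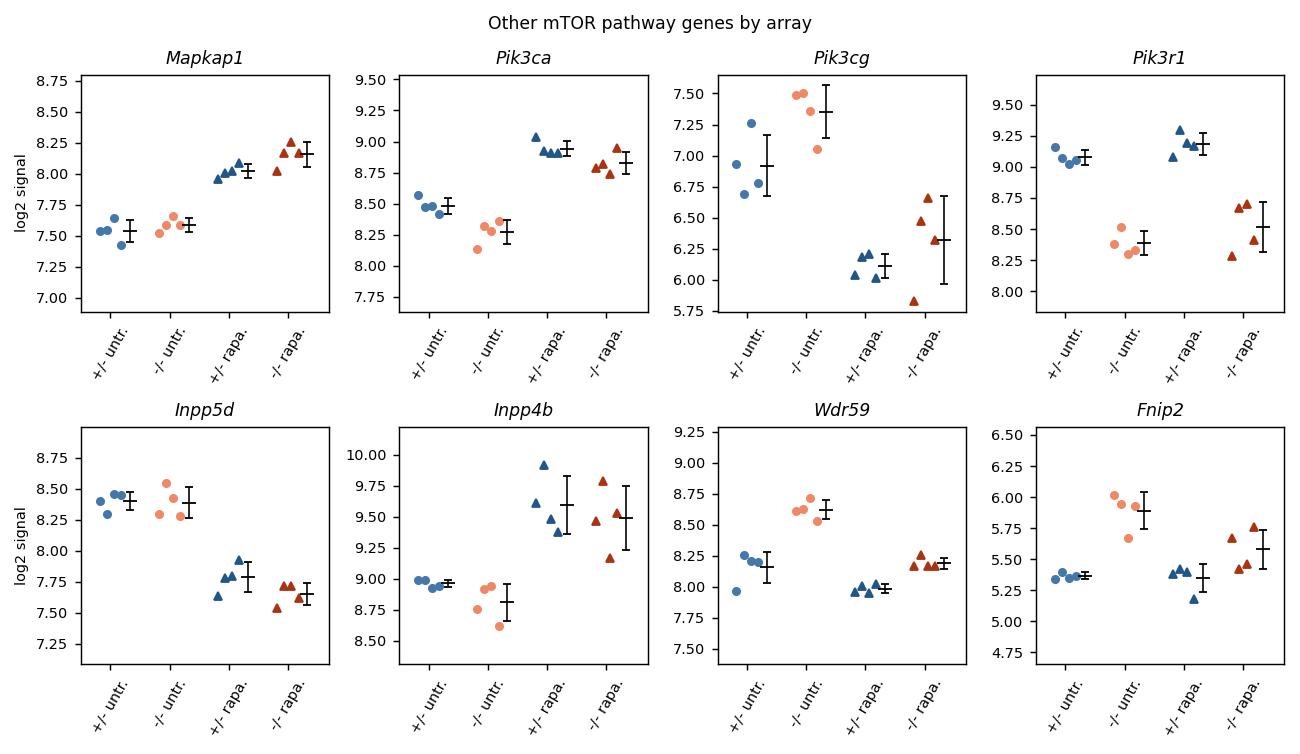
Log2 signal (vertical axis, the same height in every panel) by array of 8 other pathway genes, in the groups of the plot of the members (bars are the mean and SD over 4 arrays). They were picked for the plot after their values were seen. Pik3r1 separates the genotypes, Mapkap1, Pik3ca, Pik3cg, Inpp5d and Inpp4b separate rapamycin from untreated arrays, and Wdr59 and Fnip2 are highest in untreated Atg7-/- cells.

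Markers of cell identity moved with rapamycin and with genotype as well. The linear signals of the markers of a cell type were summed and put back on the log2 scale. For 4 T cell markers the sum was 12.61 to 12.74 in untreated and 12.14 to 12.44 in rapamycin Atg7+/- arrays. In Atg7-/- arrays it was 12.64 to 12.9 against 12.51 to 12.64. Cd4 fell by 0.67 in Atg7+/- and 0.75 in Atg7-/- cells and Cd3e by 0.55 and 0.35 (limma adjusted p = 0.00769, 0.00233, 0.00142 and 0.0167). Ctla4, a Treg marker, fell by 0.37 in Atg7-/- cells (adjusted p = 0.0139). The other Treg markers, Foxp3, Il2ra and Ikzf2, differed there by 0.14, -0.04 and -0.25 and did not pass (adjusted p = 0.346, 0.706 and 0.0677). The sum of the 4 Treg markers overlapped in Atg7-/- arrays, at 13.15 to 13.29 untreated and 13.08 to 13.18 with rapamycin. Of the dendritic cell markers, Xcr1 fell by 1.10 in each genotype (adjusted p = 0.000251 and 0.000146) and Flt3 rose by 0.55 in Atg7+/- cells (adjusted p = 0.0142). The summed signal of 4 macrophage and monocyte markers, on the log2 scale, was 6.829 to 7.01 in untreated and 7.242 to 7.83 in rapamycin Atg7+/- arrays, and 6.871 to 7.544 against 6.105 to 8.26 in Atg7-/- arrays. In Atg7+/- cells Lyz2 and Cd14 differed by 1.00 and 0.33, while Csf1r and Adgre1 differed by -0.09 and -0.24. None of these passed (limma adjusted p = 0.164, 0.208, 0.706 and 0.223). The summed signal of 4 CD8 T and NK cell markers was 7.459 to 7.565 against 7.151 to 7.241 in Atg7+/- cells, and 7.657 to 7.964 against 7.301 to 8.039 in Atg7-/- cells. The CD8 T and NK sums of Atg7-/- arrays thus lay above those of Atg7+/- arrays both without and with rapamycin. Without rapamycin the sum of 3 dendritic cell markers was also higher in Atg7-/- arrays, at 6.804 to 7.024 against 6.405 to 6.679. That of 3 neutrophil markers was 7.109 to 7.605 against 5.963 to 7.176, with overlap. Of these, S100a8 and S100a9 differed by 1.05 and 0.74 and did not pass (limma adjusted p = 0.301 and 0.372), and Ly6g by -0.06. With rapamycin both sums overlapped between genotypes. Under rapamycin Cd8b1, a CD8 T cell marker, was higher by 0.72 and Cd3d by 0.34 in Atg7-/- than Atg7+/- cells (limma adjusted p = 0.0198 and 0.0401). The other CD8 T and NK markers, Cd8a, Ncr1 and Klrb1c, differed by -0.18, -0.11 and 0.08 and did not pass (adjusted p = 0.506, 0.771 and 0.868). Cd8b1 averaged 7.316 in Atg7-/- and 6.597 in Atg7+/- cells, above each of them, so it weighs most in the sums. In bulk samples fewer cells of a type and less RNA per cell cannot be told apart. The part of these shifts in the results on Rictor, Ddit4 and the pathway genes was not tested.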

How the data were processed

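The deposited table holds the authors' log2 signals, 1 value per probe set and array. The submitters' processing notes list RMA and Partek 6.6, and per the labels small amounts of RNA were amplified before hybridization; the genome build is not given in the sources used here. Base 2 was assumed, as the file does not state it. Of 41345 probe sets, 23521 carried 1 gene symbol in GEO's platform annotation, 1814 several and 16010 none listed. The brightest probe set stood for a gene.

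Genes were tested where the highest group mean exceeded 3.549, the 30th percentile of all values. One mean per group was fitted to the 16 arrays with limma 3.58.1 (R 4.3.3, lmFit and eBayes, 12 residual and 5.64 prior degrees of freedom), two-sided, with Benjamini-Hochberg adjustment over 16760 genes and calls at an adjusted p under 0.05. The fit was tested on simulated data. The labels do not say whether replicates were separate mice, so p-values measure only how these samples spread, possibly for technical reasons. The number of arrays limits precision.

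The members and gene lists were chosen with earlier results of these data known. Named genes were all members, up to 4 called genes with the largest change per list and comparison, and the 3 genes most like each of the 3 members with the widest spans. Alternatives were the normalization, the filter on dim genes, averaging probe sets, the variance model, array weights, fits on only the groups compared, a replicate block and leaving out each array.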

Additional observations from a re-analysis of the deposited data

Results flagged for a closer look

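Dixon's criterion was applied to the 4 arrays of each group for the members and the pathway genes named by rule, 168 groups in all, and marked 5, where chance gives about 1 in 20. No member was marked. In rapamycin Atg7-/- cells, replicate 1 was low for Depdc5, at 6.78 against 6.92 to 6.94, and for Phlpp1, at 8.41 against 9.14 to 9.2. Replicate 2 of that group was high for Wdr59, at 8.26 against 8.17 on the other arrays. Rraga was high in its replicate 3, at 8.67 against 8.27 to 8.32. In rapamycin Atg7+/- cells, Pik3ca was high in replicate 1, at 9.04 against 8.91 to 8.92.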

How the results depend on the processing

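Over the 50 member differences, 1215 of 1235 refits kept the side of the threshold, 16 lost a call and 4 gained one, and no call changed sign. The members called with rapamycin in Atg7-/- cells, 1 in the reported fit, were 0 with arrays centred on their medians, with no filter on dim genes or with only the groups compared, and 2 with array weights (Rictor and Mlst8). Leaving out 1 array gave 0 to 3 there and 1 to 2 in Atg7+/- cells. Pathway genes called in Atg7-/- cells, 33, were 19 with centring, 15 with only the groups compared and 16 to 35 without 1 array; in Atg7+/- cells, 18, they were 10 to 20 without 1 array. Between untreated genotypes the count of 4 was 8 with a filter at the 50th percentile, 9 with array weights and 3 to 6 without 1 array. Under rapamycin the count of 3 was 5 with that filter or with a trended, robust variance, 0 with only the groups compared and 2 to 4 without 1 array. At the 50th percentile Deptor was not tested. The named calls with rapamycin in Atg7-/- cells, 34, lost 19 with only the groups compared and 15 with centring, and the 20 in Atg7+/- cells lost 1 and 4. Of these calls, 14 of 34 in Atg7-/- and 11 of 20 in Atg7+/- cells were kept without any 1 array. Most were lost without rapamycin Atg7-/- replicate 2 (18) or untreated Atg7-/- replicate 1 (17), and, in Atg7+/- cells, without rapamycin Atg7+/- replicate 1 (9) or untreated Atg7+/- replicate 2 (8).

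With the replicate number as a block, members called with rapamycin in Atg7-/- cells were 0 (Rictor, adjusted p = 0.0583) and pathway genes called between genotypes under rapamycin were 5. Same-numbered arrays deviated from their group means with correlations of -0.08294 to 0.3581 over 24 pairs, 6 of them over 0.1, and 8 correlated best with their own number, so the numbers were not taken as pairs. Between the rapamycin groups, replicates 1, 2 and 3 correlated at 0.2395, 0.192 and 0.3581, each best with its own number, and replicate 4 at -0.06579; there the block added Fnip1 and Lamtor2 to the calls.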
